A study of Mus musculus with 9 samples.

Results

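The 10 genes described here are Hmox1, Nqo1, Gclc, Gclm, Txnrd1, Srxn1, Slc7a11, Prdx1, Gsr and Sod2, a list of antioxidant genes of the kind controlled by the transcription factor Nrf2. They were chosen by name, and 10 of 10 were found among the 26214 genes of the deposited table. The study compared mouse stromal cells of subcutaneous adipose tissue (ScAT) and of skeletal muscle by bulk RNA sequencing. Adipose stromal cells (ASCs) came from ScAT, and fibro-adipogenic progenitors (FAPs), the stromal cells of muscle, came from the quadriceps. All animals were male C57Bl/6J mice of 8 to 12 weeks (C57Bl/6 in the labels), and all samples were taken at 1 day. ASCs (3 libraries) and FAPs (2 libraries) came from mice given NaCl, and injured FAPs (3 libraries, 1 dpi) from quadriceps given 50% glycerol, which destroys myofibres. A library of CD31+CD45+ cells from glycerol-injected quadriceps had no replicate and entered no test. ASCs and FAPs were sorted as CD31-/CD45-/Sca-1+ cells. Replicates were described as triplicates from a pool of cells of 3 animals, so p-values measure the spread between libraries, which may be technical. The study also describes its data as coming from biological replicates.

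The whole-read totals recovered from the table were 27481573, 27349184 and 27402102 in ASCs, 24052508 and 24164447 in FAPs, 26968235, 26698572 and 27028114 in injured FAPs, and 13091077 in the CD31+CD45+ library. Values below are normalized counts, that is, reads divided by a size factor for each library. Of 9 stromal markers, 6 were higher and 0 lower in ASCs than in FAPs, with a median log2 fold change of 0.79, and 2 were higher and 5 lower in injured FAPs than in FAPs, with a median of -0.68. The 2 were Ly6a, which encodes the sorting antigen Sca-1, and Pdpn, and the 5 were Cd34, Dcn, Lum, Col1a1 and Col3a1. Their summed level was at least 688810 in each of the 8 libraries in the fit, and 64335 in the CD31+CD45+ library. Pdgfra, called in neither comparison with FAPs, was at 10837, 15083 and 13043 in ASCs, 17754 and 17756 in FAPs, 23649, 25268 and 23236 in injured FAPs, and 119 in the CD31+CD45+ library. The leukocyte marker Ptprc (CD45) was at 0, 1.13 and 0 in ASCs and at 0 in both FAP libraries. In injured FAPs Ptprc was at 11.8, 55.8 and 9.92, the highest value being in replicate 2. Of 17 leukocyte markers, 13 were listed at 0 in each FAP library, and their summed level was 697, 558 and 564 in ASCs, 276 and 511 in FAPs, and 915, 4172 and 797 in injured FAPs. Their most abundant gene was Lyz2, at 725, in injured FAP replicate 2, and Cd68 in the other injured FAP libraries. The 7 markers of pericytes and smooth muscle summed to 5325, 3436 and 4183 in ASCs, 23517 and 20581 in FAPs, and 10165, 9776 and 10337 in injured FAPs. Their most abundant gene in FAPs was Rgs5 (6148) in replicate 1 and Acta2 (4848) in replicate 2, and none of the 7 was at 0 in any library. Of the tested markers of other cells, 8 of 12 endothelial, 4 of 5 satellite cell, 7 of 7 myofibre, 6 of 7 pericyte and smooth muscle and 3 of 4 Schwann cell genes were lower in ASCs than in FAPs, and 6 of 12 leukocyte, 3 of 12 endothelial and 3 of 3 adipocyte genes were higher. In injured FAPs against FAPs, 6 of 12 endothelial, 3 of 5 satellite cell, 5 of 7 myofibre, 6 of 7 pericyte and smooth muscle, 2 of 4 Schwann cell and 1 of 3 adipocyte genes were lower, and 9 of 12 leukocyte and 2 of 12 endothelial genes were higher. The 2 endothelial genes, Emcn and Cldn5, and every leukocyte gene called higher in either comparison were listed at 0 in both FAP libraries. The tested leukocyte genes with FAP values above 0, Cd68, Itgam and Mrc1, were called in neither. The globin genes Hba-a1, Hba-a2, Hbb-bs and Hbb-bt were listed at 0 in every library. Of all tested genes 23.4% were higher and 23.8% lower in ASCs, and 24.9% higher and 27.7% lower in injured FAPs, so that some of these counts, such as 2 of 12 and 1 of 3, are no larger or little larger than the share of all genes. The part of these markers in the results on the antioxidant genes was not tested. Without injured FAP replicate 2, no call of the 10 genes changed. In bulk RNA, fewer cells of a type and less RNA per cell cannot be told apart.

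Nrf2, encoded by Nfe2l2, is held in the cytoplasm and marked for degradation by Keap1, and oxidants or electrophiles release it. In the nucleus it pairs with small Maf proteins on antioxidant response elements, which Bach1 occupies as a repressor. The target genes make glutathione, recycle thioredoxin and peroxiredoxins, break down heme and reduce quinones. Sod2 and Slc7a11 are also known targets of other stress pathways, NF-kB for the former and Atf4 for the latter.

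RefSeq promoter windows of 300 bases, 250 before to 50 after the start, were found for 7 of the 10 genes (9 windows), all but Hmox1, Gclc and Gsr. Sequences of 150 bases before the first annotated exon are shown for 4 genes that rose in both ASCs and injured FAPs: Srxn1 and Prdx1, whose windows hold both motifs searched at first, Gclm, and Slc7a11, which rose furthest in injured FAPs. They are from RefSeq GRCm38.p6: Srxn1 at chr2:152105366-152105515 (+ strand), Prdx1 at chr4:116685394-116685543 (+ strand), Gclm at chr3:122245407-122245556 (+ strand) and Slc7a11 at chr3:50443615-50443764 (- strand). Each ends at the base before the first exon in the GENCODE annotation of that gene, and capitals mark the motifs, which appear as their reverse complement where they lie on the other strand.
Srxn1: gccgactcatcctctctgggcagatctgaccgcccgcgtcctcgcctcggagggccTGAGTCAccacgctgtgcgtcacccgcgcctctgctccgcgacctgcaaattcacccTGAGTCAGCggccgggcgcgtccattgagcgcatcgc
Prdx1: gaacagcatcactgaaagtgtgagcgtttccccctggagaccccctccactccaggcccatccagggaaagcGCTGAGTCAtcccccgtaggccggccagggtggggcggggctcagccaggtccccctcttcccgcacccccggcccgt
Gclm: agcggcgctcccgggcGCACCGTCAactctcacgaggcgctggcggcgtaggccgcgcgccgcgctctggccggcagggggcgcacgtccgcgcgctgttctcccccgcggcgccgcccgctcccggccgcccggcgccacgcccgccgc
Slc7a11: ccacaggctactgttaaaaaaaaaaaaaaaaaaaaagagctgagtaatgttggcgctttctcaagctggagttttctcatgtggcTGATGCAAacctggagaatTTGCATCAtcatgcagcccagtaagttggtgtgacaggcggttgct
The antioxidant response element core TGACNNNGC and the AP-1 site TGANTCA were searched on both strands, and were present in 12.4% and 7.81% of all 32851 windows. The core was found in 4 of the 9 windows, which belong to 4 of the 7 genes, Gclm, Prdx1, Srxn1 and Txnrd1. Other windows of Txnrd1 held no core. The Srxn1 match (28 bases after the start) and the Txnrd1 match are in annotated exons and are not shown. AP-1 sites were found in Prdx1 and Srxn1, a pair in each, at positions -237 and -131 from the RefSeq start in Prdx1 and at -102 and -45 in Srxn1. The Prdx1 site at -237 lies outside the bases shown. The combined motif TGANTCAGC, which holds an AP-1 site, overlaps the core where the 4th base of TGANTCAGC is C on the same strand, and was present in 1.19% of all windows. It was found in Prdx1 and Srxn1. The composite site TGATGCAA, known from amino acid response genes, was present in 0.895% of all windows, and was found at positions -66 (+) and -47 (-) of Slc7a11 and in no other window of the 10 genes. Both of these motifs were added after the windows had been read. A match is a description of the letters, and no motif was found in the windows of Nqo1 and Sod2.

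Of the 10 genes, 8 were called higher in ASCs than in FAPs, against 23.4% of all 13601 tested genes called higher. A gene was called when its adjusted p was under 0.05 and its log2 fold change beyond 0.58, and all 10 passed the filter on low values. In injured FAPs against FAPs, 7 of 10 were called higher, against 24.9% of all genes. In neither comparison was any of the 10 called lower (23.8% and 27.7% of all genes). With equal library totals, 7 were higher in ASCs and 1, Nqo1, was lower, where 11.7% of all genes were higher and 46.4% lower. The median log2 fold change over the 10 genes was 2.61 in ASCs and 1.48 in injured FAPs, beside medians of 0.00 and -0.05 over all tested genes. Both comparisons share the 2 FAP libraries. Gclm, Txnrd1, Srxn1, Slc7a11, Prdx1 and Sod2 were called higher in both, Hmox1 and Gclc in ASCs alone, Gsr in injured FAPs alone, and Nqo1 in neither.

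**Figure D1:**
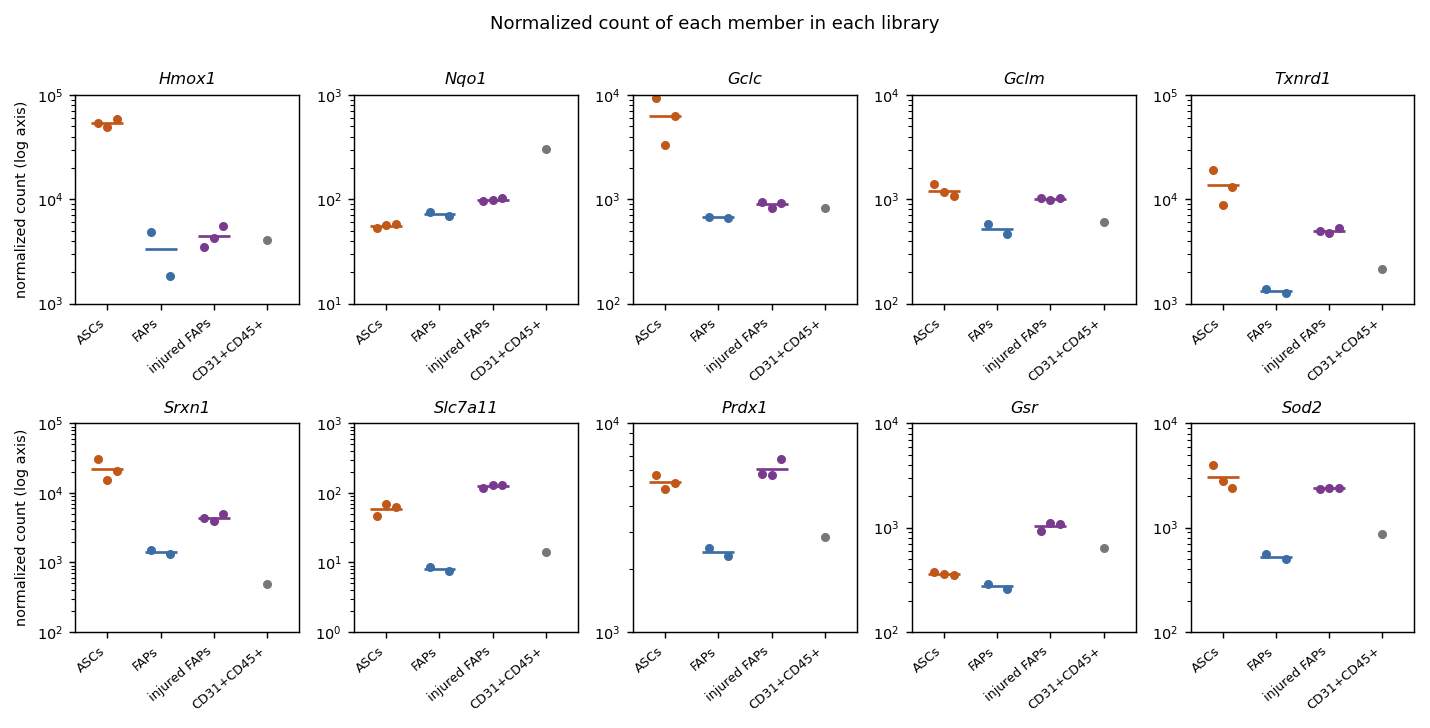
Normalized count (log axis) of each of the 10 genes in each library of ASCs, FAPs, injured FAPs and CD31+CD45+ cells; points are libraries and bars are group means. Hmox1, for example, lay between 49059 and 59239 in ASCs and at or below 5578 elsewhere.

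Hmox1 encodes heme oxygenase, which opens the heme ring to release iron, carbon monoxide and biliverdin (chr8:75093621-75100589, + strand, GRCm38). Its normalized count was 54452, 49059 and 59239 in ASCs, 4819 and 1854 in FAPs, and 3472, 4251 and 5578 in injured FAPs. ASCs were high in all 3 libraries with no overlap, while the FAP libraries differed 2.60-fold from each other and the injured FAPs overlapped them. Hmox1 was higher in ASCs than in FAPs by a log2 fold change of 4.18 ± 0.33 (SE; limma with Benjamini-Hochberg adjustment, adjusted p = 3.31e-06), and by 4.87 without FAP replicate 1 and 3.49 without FAP replicate 2. The difference of injured FAPs from FAPs was 0.54 ± 0.33 and was not called (limma with Benjamini-Hochberg adjustment, adjusted p = 0.17). That value rested on the FAP library used: it was 1.23 and called without FAP replicate 1, and -0.15 without FAP replicate 2, where the lone FAP library was assumed to vary like the other groups. Injured FAPs were lower than ASCs, with a log2 fold change of -3.64 ± 0.29 (limma with Benjamini-Hochberg adjustment, adjusted p = 2.35e-06).

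Other genes of heme and iron handling gave 7 higher and 2 lower of 16 tested in ASCs against FAPs, and 5 higher and 1 lower in injured FAPs against FAPs. Of all tested genes 23.4% were higher and 23.8% lower in the former comparison, and 24.9% higher and 27.7% lower in the latter, so 5 of 16 is near the share of all genes. The 1 lower gene in injured FAPs was not called without FAP replicate 2 or without any 1 of the injured FAP replicates, which left 0. The median log2 fold change of the 16 was 0.48 and 0.31. Blvrb, which encodes a flavin reductase also named biliverdin reductase B, was at 2543, 2585 and 2752 in ASCs, 1269 and 1174 in FAPs, and 1018, 984 and 1038 in injured FAPs. ASCs were the high group for Blvrb, and injured FAPs lay below FAPs with no overlap. The ferritin heavy chain gene Fth1, whose product stores iron, was at 88162, 82085 and 70060 in ASCs, 38492 and 30854 in FAPs, and 37983, 41573 and 36330 in injured FAPs. For Fth1 FAPs and injured FAPs overlapped. The transferrin receptor gene Tfrc, for iron uptake, was at 686, 336 and 433 in ASCs, 91.3 and 78.1 in FAPs, and 571, 651 and 782 in injured FAPs. Tfrc rose in both groups against FAPs, with log2 fold changes of 2.44 and 2.96. Blvra, whose enzyme reduces the biliverdin that heme oxygenase makes, rose in injured FAPs by 1.28 and was not called in ASCs (0.44). In ASCs Blvra was called with quantile normalization (0.85) and without ASC replicate 1 (0.59), and turned to -0.12 with equal library totals. The ASC calls of Blvrb and Fth1 depend on the scaling: Blvrb gave 0.54 with equal library totals and Fth1 0.41 with quantile normalization, neither called.

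Gclc and Gclm encode the catalytic and modifier subunits of glutamate-cysteine ligase, the first step of glutathione synthesis (chr9:77754535-77794485 and chr3:122245557-122270732, both + strand). Gclc was at 9368, 3333 and 6243 in ASCs, 680 and 664 in FAPs, and 948, 822 and 929 in injured FAPs. Every ASC library was above every other, and the ASC libraries differed 2.81-fold among themselves. Gclc was higher in ASCs by 3.11 ± 0.32 on the log2 scale (limma with Benjamini-Hochberg adjustment, adjusted p = 1.97e-05). In injured FAPs it was above FAPs in 3 of 3 libraries, but the difference of 0.42 ± 0.32 was not called (limma with Benjamini-Hochberg adjustment, adjusted p = 0.269). This SE and adjusted p include the spread of ASCs, because the 3 groups share 1 fit. The coefficient of variation of Gclc was 47.8% in ASCs, 1.65% in FAPs and 7.53% in injured FAPs. Over the alternatives the difference of injured FAPs from FAPs was 0.33 to 0.55, always under the fold threshold. Gclm was at 1394, 1179 and 1067 in ASCs, 580 and 465 in FAPs, and 1022, 989 and 1018 in injured FAPs. ASCs and injured FAPs were both above FAPs for Gclm, with log2 fold changes of 1.21 ± 0.14 and 0.96 ± 0.14 (limma with Benjamini-Hochberg adjustment, adjusted p = 3.77e-05 and 0.000152). The modifier subunit thus rose in injured FAPs without a call for the catalytic subunit, and the difference between the subunits was not tested. Exons of Gclm overlap the annotated genes Gm17494 on the opposite strand and Gm6061 on the same strand, and neither has listed values. In the shared bases, reads of Gm17494 could not be told apart from Gclm in counting without strand. Reads of Gm6061 there could not be told apart from Gclm by strand at all.

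Slc7a11 is the cystine-glutamate exchanger that supplies cysteine for glutathione, and Slc3a2 its heavy chain partner. Slc7a11 (chr3:49892526-50443614, - strand) was at 46.1, 69.1 and 62.8 in ASCs, 8.56 and 7.53 in FAPs, and 119, 130 and 129 in injured FAPs. FAPs were lowest and injured FAPs highest, with no overlap between the 3 groups. Slc7a11 was higher in injured FAPs than in FAPs by 3.81 ± 0.25 and in ASCs by 2.72 ± 0.25 (limma with Benjamini-Hochberg adjustment, adjusted p = 1.14e-06 and 9.7e-06), on a scale that adds 1 to each value and so understates changes of low genes. The FAP values stand for few reads, since 3 reads are worth 2.85 and 2.82 in these libraries. Slc3a2 was at 24953, 14898 and 16496 in ASCs, 2811 and 2655 in FAPs, and 5466, 4939 and 5134 in injured FAPs. It was highest in ASCs, where Slc7a11 was not.

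Gsr encodes glutathione reductase, which regenerates glutathione with NADPH (chr8:33652523-33698163, + strand). Its values were 373, 361 and 353 in ASCs, 288 and 260 in FAPs, and 920, 1106 and 1076 in injured FAPs. Injured FAPs stood above both other groups in every library. The rise over FAPs was 1.91 ± 0.12 (limma with Benjamini-Hochberg adjustment, adjusted p = 9.83e-07), and over ASCs 1.51 ± 0.11 (limma with Benjamini-Hochberg adjustment, adjusted p = 1.11e-06). ASCs were above FAPs by 0.40 ± 0.12, which was under the fold threshold (limma with Benjamini-Hochberg adjustment, adjusted p = 0.0159) and turned to -0.16 with equal library totals.

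The other glutathione genes gave 7 higher and 2 lower of 20 tested in ASCs (23.4% and 23.8% of all genes), and 8 higher and 4 lower in injured FAPs (24.9% and 27.7% of all genes), each against FAPs, with medians of 0.54 and 0.41 on the log2 scale. The 2 lower genes in ASCs became 1 without ASC replicate 3. Gss, the second enzyme of glutathione synthesis, was at 126, 212 and 122 in ASCs, 127 and 163 in FAPs, and 274, 297 and 281 in injured FAPs. Injured FAPs were again the high group for Gss, and ASCs and FAPs overlapped. The glutaredoxin gene Glrx rose by 1.57 in injured FAPs against FAPs. The secreted glutathione peroxidase gene Gpx3 moved the other way, at 46786 and 47129 in FAPs and 15947, 14930 and 13169 in injured FAPs, but at 144860, 83957 and 119120 in ASCs. Mgst2 was listed but did not pass the filter.

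Txnrd1 encodes the cytosolic thioredoxin reductase, Prdx1 a peroxiredoxin that reduces peroxides, and Srxn1 sulfiredoxin, which restores overoxidized peroxiredoxins (chr10:82833951-82897712, chr4:116685544-116700822 and chr2:152105516-152111376, all + strand). Txnrd1 was at 19042, 8771 and 13094 in ASCs, 1389 and 1257 in FAPs, and 4960, 4737 and 5339 in injured FAPs. Srxn1 was at 30709, 15503 and 20628 in ASCs, 1489 and 1334 in FAPs, and 4306, 3971 and 4908 in injured FAPs. Both genes ranked the groups in 1 order, ASCs highest and FAPs lowest, with no overlap, and both were highest in ASC replicate 1 and lowest in ASC replicate 2 among ASCs. Txnrd1 was higher than in FAPs by 3.30 ± 0.25 in ASCs and 1.92 ± 0.25 in injured FAPs (limma with Benjamini-Hochberg adjustment, adjusted p = 2.35e-06 and 7.17e-05). Srxn1, whose upstream stretch with both AP-1 sites is printed above, was higher by 3.92 ± 0.23 and 1.63 ± 0.23 (limma with Benjamini-Hochberg adjustment, adjusted p = 4.83e-07 and 0.000131). Injured FAPs were lower than ASCs for both, with log2 fold changes of -1.37 and -2.29.

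Prdx1 was at 5671, 4867 and 5206 in ASCs, 2513 and 2322 in FAPs, and 5714, 5669 and 6781 in injured FAPs. FAPs were low, while ASCs and injured FAPs overlapped. Prdx1 rose by 1.12 ± 0.11 in ASCs and 1.32 ± 0.11 in injured FAPs (limma with Benjamini-Hochberg adjustment, adjusted p = 1.82e-05 and 5.08e-06), and the ASC difference was 0.55 and not called with equal library totals. In the remaining thioredoxin and peroxiredoxin list, 6 genes were higher and 4 lower of 17 in ASCs, and 9 higher and 3 lower in injured FAPs, with medians of 0.17 and 0.72. The shares of all genes were 23.4% and 23.8% in ASCs, where the share of the list that was lower is near that of all genes, and 24.9% and 27.7% in injured FAPs. Txn1, the thioredoxin that Txnrd1 reduces, was at 4068, 4632 and 4083 in ASCs, 2205 and 1793 in FAPs, and 5204, 4978 and 6246 in injured FAPs. It was lowest in FAPs, as the reductase was, but its ASC rise of 1.10 became 0.53 and was not called with equal library totals. Txnip, which binds and inhibits thioredoxin, was at 4521, 6211 and 5708 in ASCs, 13813 and 13343 in FAPs, and 1689, 1496 and 1844 in injured FAPs. For Txnip the order was reversed, FAPs being highest and injured FAPs lowest, with a log2 fold change of -3.02 ± 0.14 in injured FAPs against FAPs (limma with Benjamini-Hochberg adjustment, adjusted p = 2.61e-07).

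Sod2 is the mitochondrial superoxide dismutase (chr17:13006846-13040063, + strand). It was at 3978, 2829 and 2428 in ASCs, 557 and 501 in FAPs, and 2344, 2420 and 2378 in injured FAPs. FAPs were low in both libraries, and the lowest ASC library lay just above the highest injured FAP library. Sod2 was higher than in FAPs by 2.51 ± 0.17 in ASCs and 2.17 ± 0.17 in injured FAPs (limma with Benjamini-Hochberg adjustment, adjusted p = 1.42e-06 and 3.28e-06). The cytosolic enzyme gene Sod1 differed less, at 2175, 2113 and 2204 in ASCs, 1301 and 1325 in FAPs, and 1789, 1699 and 1851 in injured FAPs. Its ASC call, at 0.72, was not made with equal library totals (0.15), quantile normalization (0.45) or a common 75th percentile (0.52). Catalase, which breaks down hydrogen peroxide, was at 2021, 2108 and 2550 in ASCs, 2126 and 1993 in FAPs, and 1467, 1597 and 1490 in injured FAPs. The superoxide and peroxide list gave 5 higher and 0 lower of 13 in ASCs, and 2 higher and 4 lower in injured FAPs, with medians of 0.37 and -0.04. Over all tested genes 23.4% were higher and 23.8% lower in ASCs, and 24.9% higher and 27.7% lower in injured FAPs, so the share lower in injured FAPs was near that of all genes. The 2 higher genes were Park7 and Cybb, the latter for a subunit of the phagocyte oxidase. Cybb had a listed value of 0 in each FAP library, where 3 reads are worth 2.85 and 2.82, and averaged 30.2 in injured FAPs, with 65.9 in replicate 2, where the leukocyte markers were highest too. Without FAP replicate 1 the 4 lower genes became 2. The genes of the oxidases Aox1 and Xdh were among the 4, with log2 fold changes of -2.03 and -1.02.

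Nqo1, the quinone reductase often used to report Nrf2 activity, was called in neither comparison with FAPs (chr8:107388225-107403206, - strand). It was at 52.7, 56.6 and 57.7 in ASCs, 76.1 and 69.6 in FAPs, and 96.5, 97.6 and 102 in injured FAPs. ASCs were the lowest group and injured FAPs the highest, with no overlap. Set against FAPs, Nqo1 differed by -0.38 ± 0.19 in ASCs and by 0.44 ± 0.19 in injured FAPs on the log2 scale (limma with Benjamini-Hochberg adjustment, adjusted p = 0.108 and 0.0665). The sign in ASCs turned with quantile normalization (0.15), and with equal library totals the decrease was called (-0.94). In injured FAPs against FAPs the increase was called with quantile normalization (0.77). Nqo1 was higher in injured FAPs than in ASCs by 0.82 ± 0.17 (limma with Benjamini-Hochberg adjustment, adjusted p = 0.00169). Of 19 tested other genes commonly given as Nrf2 targets, 8 were higher and 2 lower in ASCs (23.4% and 23.8% of all genes), and 7 higher and 8 lower in injured FAPs (24.9% and 27.7% of all genes), with medians of 0.43 and -0.64. The 2 lower in ASCs became 1 without FAP replicate 2. Osgin1, a stress-induced growth inhibitor gene, and the glutathione transferase gene Gstm1 fell in injured FAPs, with log2 fold changes of -2.48 and -2.13. Akr1b3 did not pass the filter.

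**Figure D2:**
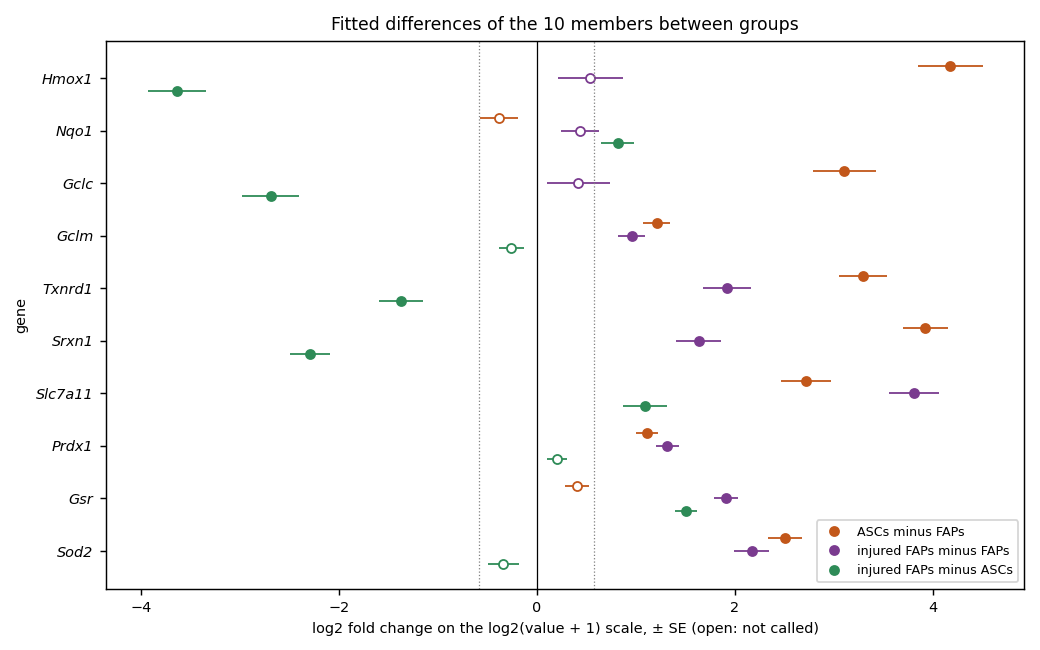
Log2 fold change on the log2(value + 1) scale with its standard error for the 10 genes in each comparison; open points were not called and dotted lines mark 0.58 on either side of 0. Hmox1 lies at 4.18 in ASCs minus FAPs and at 0.54 in injured FAPs minus FAPs, and Slc7a11 at 2.72 and 3.81; with equal library totals or quantile normalization signs turn for Nqo1, Gsr, Gclm or Sod2 in single comparisons.

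Injured FAPs and ASCs were also compared directly, which tests whether the differences from FAPs were of unequal size. In this comparison 3 of 10 genes were higher in injured FAPs (25.0% of all tested genes), Nqo1, Slc7a11 and Gsr, and 4 were lower (25.8% of all), Hmox1, Gclc, Txnrd1 and Srxn1. Gclm, Prdx1 and Sod2 were not called, with log2 fold changes of -0.26 ± 0.12, 0.20 ± 0.10 and -0.34 ± 0.15. With equal library totals Gclm and Sod2 turned to 0.44 and 0.36, and Prdx1 was called at 0.90, while with quantile normalization Prdx1 was called at 0.62. The median over the 10 genes was -0.30, beside 0.02 over all genes, and turned to 0.40 with equal library totals, beside 0.71 over all genes. ASCs came from another tissue than FAPs and were released by collagenase NB4 for 60 minutes, whereas muscle was digested with collagenase B and dispase II in 2 steps of 30 minutes. Tissue and digestion cannot be told apart for ASCs against either kind of FAPs.

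Among 15 regulators and partners of Nrf2, 9 were higher and 0 lower in ASCs against FAPs, and 4 were higher and 2 lower in injured FAPs against FAPs, with medians of 0.96 and 0.03. All genes gave 23.4% and 23.8% in ASCs, and 24.9% and 27.7% in injured FAPs. With equal library totals the ASC counts became 7 higher and 3 lower, where 11.7% of all genes were higher and 46.4% lower. They were 9 and 2 with quantile normalization (22.4% and 22.1% of all genes), and 8 and 1 with a common 75th percentile (18.3% and 30.1%). Nfe2l2 itself was at 13394, 10192 and 11155 in ASCs, 3050 and 3071 in FAPs, and 5228, 4958 and 5041 in injured FAPs. It was highest in ASCs and lowest in FAPs with no overlap, the order seen for Txnrd1 and Srxn1. In injured FAPs against ASCs its log2 fold change was -1.18 and called, but -0.48 and not called with equal library totals. Nfe2l2 rose by 1.91 ± 0.12 and 0.73 ± 0.12 (limma with Benjamini-Hochberg adjustment, adjusted p = 6.97e-07 and 0.000346). The repressor gene Bach1 was at 8514, 6636 and 7138 in ASCs, 855 and 708 in FAPs, and 2217, 1903 and 2192 in injured FAPs, and so rose together with Nfe2l2. Bach2, a related repressor, was higher in ASCs and lower in injured FAPs, with log2 fold changes of 0.96 and -0.81, not called in ASCs with equal library totals (0.40) or in injured FAPs with quantile normalization (-0.49). Keap1 was at 527, 915 and 702 in ASCs, 1014 and 1041 in FAPs, and 916, 902 and 901 in injured FAPs. Keap1 was lower in ASCs by a log2 fold change of -0.56 ± 0.19, just short of the fold threshold (limma with Benjamini-Hochberg adjustment, adjusted p = 0.0241), and was called without ASC replicate 2 (-0.76) and with 3 other scalings (-0.68 to -1.13). The small Maf gene Mafg was at 1935, 997 and 1234 in ASCs, 465 and 544 in FAPs, and 440, 469 and 446 in injured FAPs. Mafg was thus high in ASCs, and FAPs and injured FAPs overlapped.

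**Figure D3:**
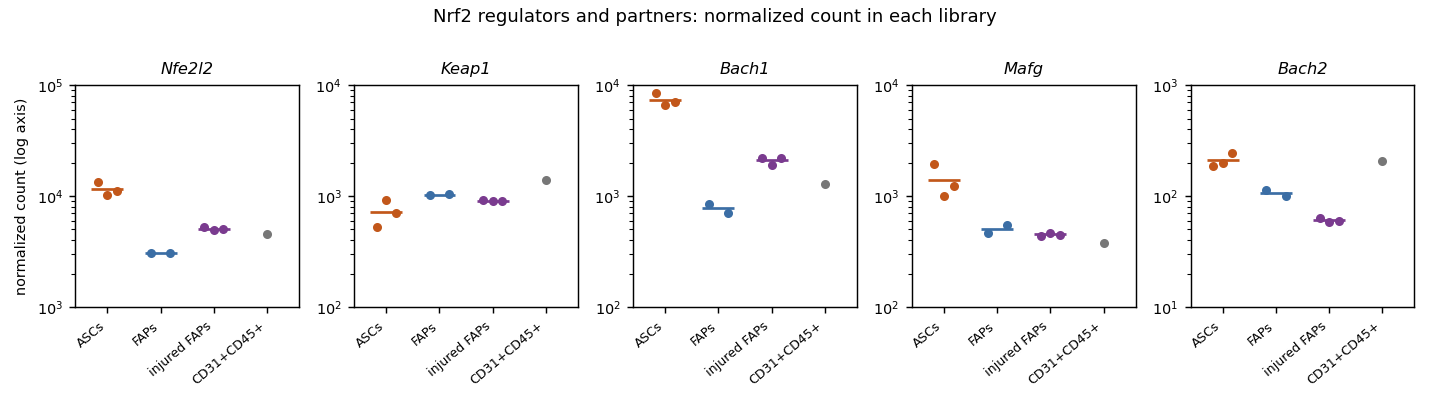
Normalized count (log axis) of Nfe2l2, Keap1, Bach1, Mafg and Bach2 in each library; points are libraries and bars are group means. Nfe2l2 lies between 10192 and 13394 in ASCs, at 3050 and 3071 in FAPs and between 4958 and 5228 in injured FAPs.

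Of a list of 14 genes for enzymes of the supply of NADPH, the electron donor of both reductases, 7 were higher and 0 lower in ASCs against FAPs (23.4% and 23.8% of all tested genes), and 9 higher and 0 lower in injured FAPs against FAPs (24.9% and 27.7%), with medians of 0.53 and 1.10. The list takes in Pgls, Taldo1, Tkt and Nadk, whose enzymes do not themselves form NADPH, and of these Tkt was among the higher genes in both. Pgls, Taldo1, Idh1, Nnt and Nadk were called in neither. The count in ASCs fell to 4 with a common 75th percentile and to 3 with equal library totals, where 18.3% and 11.7% of all genes were higher. G6pdx, the entry of the pentose phosphate pathway, was at 2706, 3133 and 2935 in ASCs, 1492 and 1435 in FAPs, and 2317, 2441 and 2229 in injured FAPs. The ASC rise of G6pdx, 1.00, became 0.43 and was not called with equal library totals. Mthfd1 and Mthfd2 of folate metabolism both rose in injured FAPs, the former by 2.35. Injured FAPs were called above ASCs for 6 of the 14 and below for 0, beside 25.0% and 25.8% of all genes, and one of the 6, Mthfd2 (0.67), was not called without ASC replicate 2 (0.58, under the threshold before rounding) or ASC replicate 3 (0.50).

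Lists of 2 other stress responses were read beside Slc7a11 and Sod2. The counts of this paragraph stand against 23.4% higher and 23.8% lower of all genes in ASCs, and 24.9% and 27.7% in injured FAPs. Of 16 Atf4-type amino acid stress genes, 8 were higher and 2 lower in ASCs, and 7 higher and 6 lower in injured FAPs, with medians of 0.91 and 0.36. Psat1 of serine synthesis was at 1392, 873 and 629 in ASCs, 260 and 236 in FAPs, and 3105, 2864 and 3084 in injured FAPs. Its groups stood in the same order as those of Slc7a11, and so did those of the asparagine synthetase gene Asns, whose lowest injured FAP library (1702) lay above the highest of ASCs (1433). The Asns difference of injured FAPs from ASCs (0.71) was not called without ASC replicate 3 (0.47). Atf4 itself was at 35670, 23799 and 27269 in ASCs, 8824 and 7986 in FAPs, and 9797, 8861 and 9778 in injured FAPs. Atf4 was thus highest in ASCs, unlike Slc7a11. Other genes of the list were also highest in ASCs (among them Trib3, Vldlr and Nupr1) or in injured FAPs (among them Psph and Shmt2). Of 14 NF-kB feedback genes, 14 were higher in ASCs and 13 in injured FAPs, with medians of 2.10 and 1.23. Among these 14 genes, the chemokine genes Ccl2 and Cxcl1 had the largest rises in injured FAPs against FAPs, 5.14 and 3.88. Their rises in ASCs against FAPs were larger, at 5.74 and 4.64, an order that depends on the scaling. In injured FAPs against ASCs, Ccl2 went from -0.60 to 0.56 with quantile normalization and 0.10 with equal library totals. Cxcl1 went from -0.76 to 0.40 and -0.06, and neither gene was called in these settings. A further list of 14 immediate early and heat shock genes, chosen after values had been seen, gave 5 higher and 5 lower in ASCs, and 1 higher and 11 lower in injured FAPs, with medians of -0.12 and -1.50. Without ASC replicate 1 the 5 lower genes in ASCs became 3. Hspa1a was at 4263, 13716 and 8528 in ASCs, 42226 and 40113 in FAPs, and 5139, 3949 and 8205 in injured FAPs, and Hspa1b followed with log2 fold changes of -2.66 and -2.86. Of the 3 groups, FAPs were thus highest for Hspa1a, and the part of these genes in the results above was not tested. The medians of several lists depend on the scaling. With equal library totals, where the median of all genes was -0.56 in ASCs against FAPs, the ASC medians turned to -0.09 for heme and iron, -0.03 for glutathione, -0.39 for thioredoxin and peroxiredoxin, -0.20 for superoxide and peroxide, -0.04 for NADPH supply and -0.14 for the other Nrf2-type targets. In ASCs against FAPs a common 75th percentile turned the thioredoxin and peroxiredoxin median (-0.03), and leaving out ASC replicate 1 that of the immediate early and heat shock genes (0.09). In injured FAPs against FAPs the medians nearest 0, of regulators (0.03) and of superoxide and peroxide genes (-0.04), turned in 5 and 2 of the alternatives. The alternatives were applied to list medians after values had been seen.

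**Figure D4:**
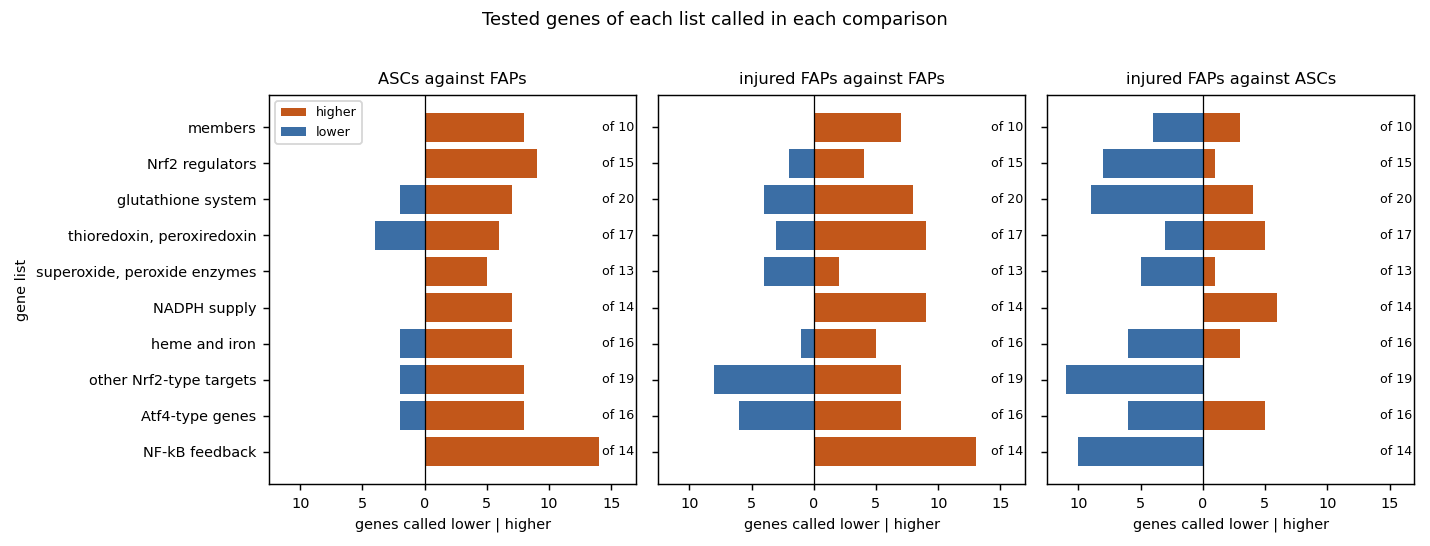
Number of tested genes of each list called higher (right) or lower (left) in each comparison, with the number tested at the margin. In ASCs against FAPs 8 of 10 members and 14 of 14 NF-kB feedback genes were higher, and in injured FAPs against ASCs 11 of 19 other Nrf2-type targets were lower, beside 25.8% of all genes (7 with equal library totals, beside 12.4%).

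Levels were compared between genes only per kilobase of exon, scaled as TPM over the 24870 genes with a length. On this scale Hmox1 was the most abundant of the 10 in ASCs, at 3614 ± 324 TPM (SD, n = 3), followed by Srxn1 at 907 ± 241. In ASCs the neighbours Txnrd1, Prdx1 and Gclc overlapped, at 220 ± 66.2, 201 ± 0.866 and 191 ± 77.7. Hmox1 also led in FAPs, at 339 ± 209 (SD, n = 2), ahead of Prdx1 at 142 ± 5.61. In injured FAPs Hmox1 (464 ± 116, n = 3) and Prdx1 (364 ± 39.5) overlapped, and so did Gclc and Sod2. Slc7a11 was the least abundant in every group, at 0.503 ± 0.137, 0.103 ± 0.00767 and 1.66 ± 0.11 TPM in ASCs, FAPs and injured FAPs. Nqo1 was the next lowest in each of these groups.

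Spread between replicates was widest in ASCs for several of the genes. The coefficient of variation in ASCs reached 47.8% for Gclc, 37.8% for Txnrd1 and 34.7% for Srxn1, and its median over the 10 genes was 16.8%, beside 15.9% over all tested genes. ASC replicate 1 held the highest ASC value for 7 of the 10, and for 5435 of the 13601 tested genes. In FAPs replicate 1 was the higher of the pair for 10 of 10, and for 6806 of the 13601 tested genes. The widest gap was that of Hmox1. The median coefficient of variation in injured FAPs was 6.80%.

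Genes whose pattern over the 8 libraries was most like that of the 3 members with the widest range between groups were named by the smallest root mean square difference of centred log2 values, among 10585 genes. For Hmox1 these were Ifi205, Ugt1a6a and Il1rl2, with differences of 0.40, 0.41 and 0.43. For Srxn1 they were Tfpi2, Homer1 and Wnt2, at 0.16, 0.20 and 0.20. Tfpi2 was at 5186, 3244 and 4034 in ASCs, 342 and 288 in FAPs, and 805, 694 and 835 in injured FAPs, and so was also highest in ASC replicate 1 and lowest in ASC replicate 2 among ASCs. For Slc7a11 they were Angptl4, Rnd1 and Lmnb1, at 0.24, 0.28 and 0.35. Angptl4 was at 2748, 3795 and 2284 in ASCs, 435 and 497 in FAPs, and 5202, 7000 and 5522 in injured FAPs.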

How the data were processed

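RNA of sorted cells was sequenced paired-end. Per the study's methods and the submitters' processing notes, reads were checked with FastQC, aligned to mm10 with HISAT2, counted per gene with featureCounts of Subread and normalized with DESeq2. Strand setting and treatment of reads with several matches are not given in the sources used here. The deposited values are a signal, reads divided by the authors' size factor of each library, and 100% of values came out as whole reads within 0.01.

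Values entered limma 3.58.1 (R 4.3.3) as log2(value + 1) with its trend option, for 13601 genes with a mean of at least 10 over 8 libraries of 3 groups in 1 fit (5 residual degrees of freedom), with Benjamini-Hochberg adjustment over all of them. edgeR 4.0.16 and DESeq2 1.42.0 on the recovered reads were alternatives, beside other pseudocounts, filters, scalings and left-out libraries. The fits were tested on simulated data. The members and gene lists were chosen with earlier results of these data known. Named were the 10 members, the markers, 12 list genes given by name, in each list the 2 called genes (mean of at least 100) with the largest change in injured FAPs against FAPs, and the most alike genes. Cybb, Park7, Tkt, Pgls, Taldo1, Idh1, Nnt, Nadk, Atf4, Trib3, Vldlr, Nupr1, Psph and Shmt2 were named after their values were seen. Exon lengths and coordinates are from GENCODE on GRCm38, and promoters from RefSeq GRCm38.p6. The limit that a count of 0 allows, 3 reads, was worth 2.29 to 4.71 in the libraries, for counting error only.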

Additional observations from a re-analysis of the deposited data

Results flagged for a closer look

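Nqo1 stood at 304.5 in the CD31+CD45+ library, which entered no comparison, above all 8 other libraries (52.7 to 102). The library has no replicate, so the difference has no replicate check. Srxn1 was at 487 there, below the lowest of the 8 other libraries (1334), and the other 8 genes lay within their range. Groups of 2 and 3 libraries were not tested for samples far from the others.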

How the results depend on the processing

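The calls of the 10 genes were repeated under 21 alternatives. Members called numbered 8 to 9 in ASCs against FAPs (8 as reported), 7 to 8 in injured FAPs against FAPs (7) and 7 to 8 in injured FAPs against ASCs (7). In ASCs against FAPs with equal library totals the 8 were 7 higher and 1 lower, Prdx1 no longer being called and Nqo1 being called as a decrease (-0.94), while 8 higher and 0 lower are reported. Over 630 single values of the 10 genes, 618 kept their sign and their side of the threshold, 6 became called, among them Nqo1 in that decrease, Hmox1 without FAP replicate 1 (1.23) and Nqo1 with quantile normalization (0.77), the latter pair in injured FAPs against FAPs, 1 was no longer called (Prdx1 in ASCs against FAPs, 0.55 with equal library totals) and 5 changed sign. The 5 were Nqo1 in ASCs against FAPs with quantile normalization (0.15), Gsr in ASCs against FAPs with equal library totals (-0.16), Gclm and Sod2 in injured FAPs against ASCs with equal library totals (0.44 and 0.36), and Hmox1 in injured FAPs against FAPs without FAP replicate 2 (-0.15); the cause was not tested. None of the 5 had been called. Leaving out each library in turn gave 5653 to 6683, 6323 to 7358 and 6582 to 7190 genes called in the 3 comparisons, and 8, 7 to 8 and 7 members. Where this left 1 FAP library, it was assumed to vary like the other groups.

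Equal library totals moved the median of all genes by -0.57 in ASCs against FAPs, 0.13 in injured FAPs against FAPs and 0.70 in injured FAPs against ASCs, and a common 75th percentile by -0.20 in the first and 0.12 in the third. The share of calls that were higher went from 49.6% to 20.1% (equal totals) and 37.8% (75th percentile) in ASCs against FAPs, and from 49.3% to 81.3% (equal totals) in injured FAPs against ASCs. The summed values of the 100 most abundant genes took 40.3% to 43.1% of ASC libraries and 24.7% to 26.1% of injured FAP libraries. edgeR on recovered reads called 6450, 7303 and 7000 genes in the 3 comparisons and DESeq2 6412, 7227 and 6865, beside 6416, 7153 and 6909 in limma.

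With the replicate number as a replicate block the counts were 6287, 7046 and 6861 genes and 8, 7 and 7 members. Libraries with the same number did not deviate together (correlations of -0.0545 to 0.0446 over 7 pairs), so the numbers were not taken as pairs. Alternatives for the gene lists were added after the data had been seen.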
